A study of Mus musculus with 5 samples.

Results

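A group of 9 genes of the erythroid and megakaryocyte lineages was followed in a list of H3K27ac peaks: the erythroid genes Klf1, Epor, Hba-a1 and Hbb-bt, and the megakaryocyte and platelet genes Itga2b, Pf4, Gp1bb, Gp9 and Vwf. They are 9 of the 21887 protein-coding genes on the assembled mouse chromosomes. H3K27ac, acetylation of lysine 27 on histone H3, is found at active promoters and enhancers. It was measured by ChIPmentation, in which the transposase Tn5 adds sequencing adapters to immunoprecipitated chromatin. Per the labels, the cells came from mouse bone marrow, were sorted as CD45.2+, lineage-negative, Sca1+ and Kit+, a fraction labelled HSC/MPP, and had the genotype Mll3/4 deleted. The 4 H3K27ac libraries and the 1 input library all carried this genotype, and libraries of other genotypes are not analysed here. The age and number of animals, the way the genes were deleted and whether the libraries came from separate animals are not given in the sources used here. The deposited values are 1 list of 22948 peaks for the 4 libraries together, so there is no replicate error, no test and no comparison with cells that keep Mll3 and Mll4.

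Red cells and platelets arise from a shared progenitor whose genes are switched on by factors such as GATA1, TAL1 and, in the red cell branch, KLF1. Globin genes are driven by distant enhancers: those of the alpha-globin genes lie mostly in introns of the neighbouring gene Nprl3, and those of the beta-globin genes form a locus control region beyond the embryonic gene Hbb-y. Some stem cells already express platelet genes such as Vwf and Itga2b, and are called platelet-biased.

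Of the 9 genes, 1 had a peak at an end, meaning a peak that overlapped the 1 kb on either side of the low or the high end of the gene. This was Hbb-bt, an adult beta-globin gene. Among all protein-coding genes, 36.2% had such a peak. With the annotated start sites that the reference gave for 8 of the 9 genes (not for Vwf), 1 of 8 had a peak within 1 kb of its start, against 38.0% of the 17492 protein-coding genes with a listed start. Away from ends, 3 of the 8 genes without a peak at an end had a distal peak in the body or within 50 kb: Vwf, Gp9 and Itga2b. The share was 34.1% among all 13958 protein-coding genes without a peak at an end, so the count of 3 of 8 lay near the background. Distal means that the summit was more than 1 kb from every end of a protein-coding gene. The strengths of these distal peaks were unequal. The peak inside Vwf had a signal value of 7.65, while those near Gp9 and Itga2b had 2.62 and 2.69. The signal value is the authors' enrichment of H3K27ac over background, and the median distal peak of the list had 2.97.

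**Figure D1:**
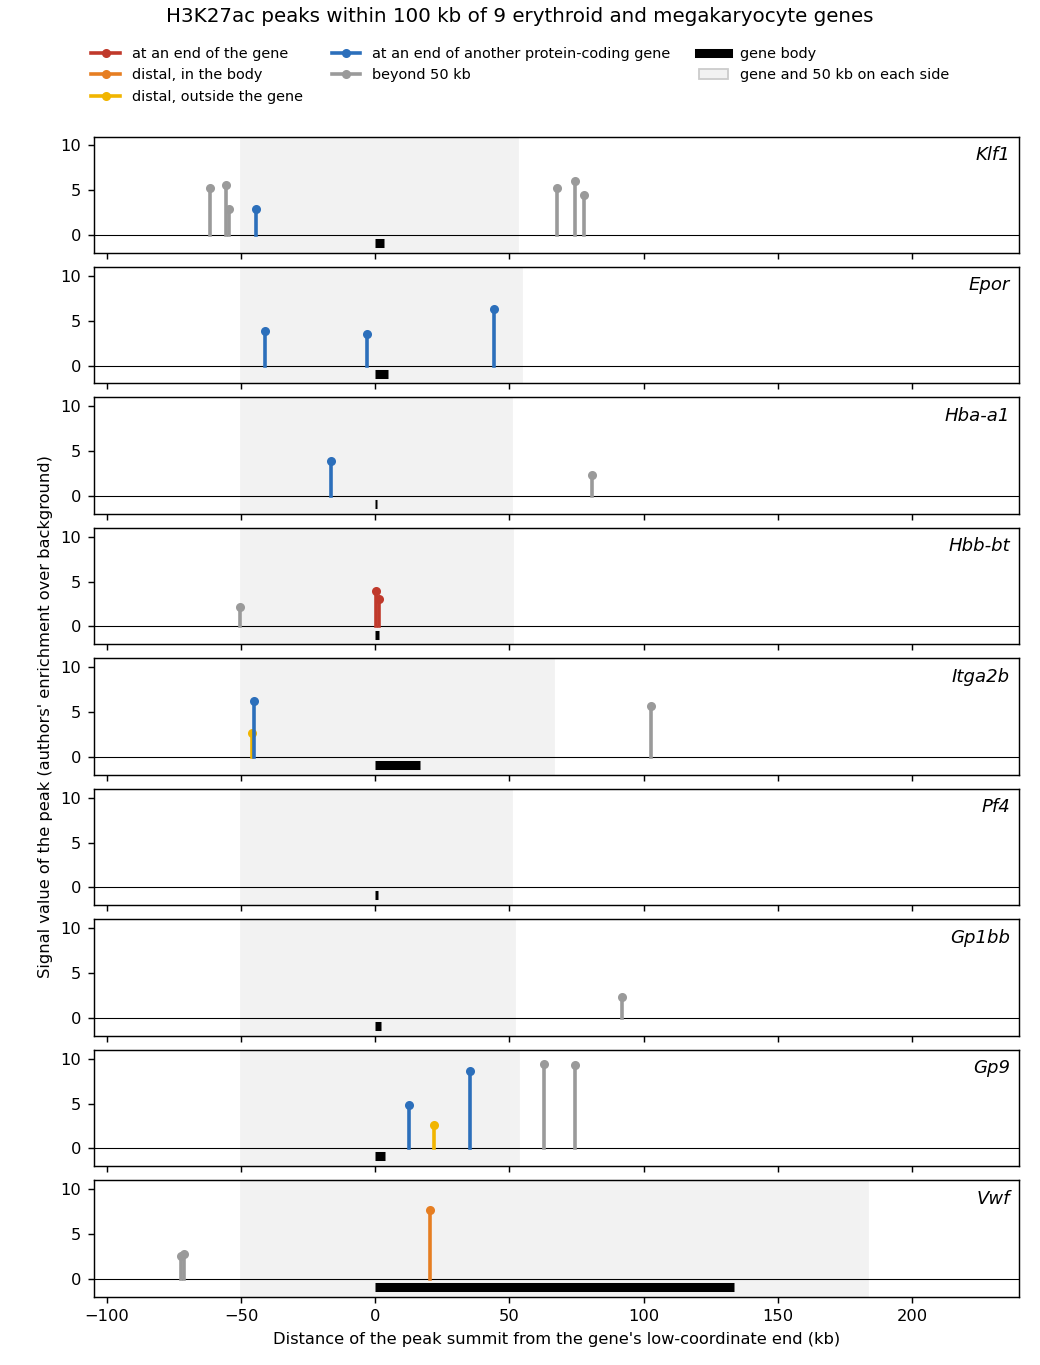
Summits of all H3K27ac peaks within 100 kb of the 9 genes, drawn at their distance in kb from the low-coordinate end of each gene, with the height giving the authors' signal value (enrichment over background, 1 pooled list, no error bars). Hbb-bt alone has peaks at its ends, Vwf has 1 peak in its body, and Pf4 has none in the range drawn.

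The start regions are shown because the reference sequence lets the 1 start with a peak be set beside its copy and other starts where no peak was called. Each line gives the 250 bases before the annotated start, 5′ to 3′ on the strand of the gene, from the RefSeq tables of GRCm38.p6. Capitals mark a GATA match, which is the word GATA with an A or T before it and an A or G after it, the box spelled CCAAT, and the box spelled TATAAA, each on either strand. The stretches are chr7:103813924-103814173 on the minus strand for Hbb-bt, chr7:103827929-103828178 on the minus strand for Hbb-bs, chr8:84901732-84901981 on the plus strand for Klf1, chr9:21963577-21963826 on the minus strand for Epor, chr11:32283422-32283671 on the plus strand for Hba-a1 and chr16:18622404-18622653 on the minus strand for Gp1bb.
Hbb-bt: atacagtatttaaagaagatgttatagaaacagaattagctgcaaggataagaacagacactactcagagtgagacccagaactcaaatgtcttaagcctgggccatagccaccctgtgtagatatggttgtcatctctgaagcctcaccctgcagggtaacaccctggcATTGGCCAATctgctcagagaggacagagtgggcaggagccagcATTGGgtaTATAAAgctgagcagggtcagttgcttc
Hbb-bs: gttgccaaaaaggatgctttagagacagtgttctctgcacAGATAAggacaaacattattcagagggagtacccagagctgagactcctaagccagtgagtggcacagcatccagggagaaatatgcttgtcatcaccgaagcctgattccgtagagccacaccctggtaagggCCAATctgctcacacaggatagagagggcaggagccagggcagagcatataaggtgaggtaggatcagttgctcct
Klf1: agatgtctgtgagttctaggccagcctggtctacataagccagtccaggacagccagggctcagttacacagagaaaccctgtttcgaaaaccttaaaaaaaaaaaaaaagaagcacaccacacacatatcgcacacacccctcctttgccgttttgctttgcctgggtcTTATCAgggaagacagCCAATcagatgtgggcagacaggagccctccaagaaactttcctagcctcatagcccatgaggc
Epor: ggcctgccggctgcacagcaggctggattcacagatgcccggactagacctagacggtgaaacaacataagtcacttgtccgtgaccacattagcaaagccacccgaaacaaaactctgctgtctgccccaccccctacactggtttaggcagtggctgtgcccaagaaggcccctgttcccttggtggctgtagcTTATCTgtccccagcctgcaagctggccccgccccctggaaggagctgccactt
Hba-a1: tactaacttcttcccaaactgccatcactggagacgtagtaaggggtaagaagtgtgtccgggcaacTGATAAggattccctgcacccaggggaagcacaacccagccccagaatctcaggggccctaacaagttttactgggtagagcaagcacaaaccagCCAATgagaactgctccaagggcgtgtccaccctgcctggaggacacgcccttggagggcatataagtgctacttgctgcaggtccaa
Gp1bb: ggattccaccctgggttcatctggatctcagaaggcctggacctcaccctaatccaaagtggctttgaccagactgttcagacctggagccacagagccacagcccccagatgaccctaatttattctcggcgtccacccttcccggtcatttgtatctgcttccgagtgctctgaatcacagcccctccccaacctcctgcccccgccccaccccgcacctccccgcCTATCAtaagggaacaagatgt

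Klf1, Epor, Hba-a1 and Gp1bb are the 4 of 8 genes whose 250 bases held a GATA match, and none of the 4 had a peak there. Hbb-bt, whose start had a peak, held none. Itga2b, Pf4 and Gp9, whose start regions are not printed, also held none, and they had no peak there. Of the 21263 start regions of protein-coding genes in the table, 23.6% held a GATA match. The word AGGAAG, or else the word CGGAAG, which are part of the sites of ETS factors, were found at 4 of the 8 genes (Itga2b, Pf4, Gp1bb and Gp9) and in 40.8% of all start regions. CCNCNCCC, which contains the CACCC box that KLF1 binds and also fits GC boxes of other factors, was found at 5 of 8 and in 52.9% of all. CCAAT was found at 5 of 8 and in 35.4% of all. TATAAA was found only at Hbb-bt among the 8, and in 11.6% of all. Both strands were searched, and no match to 1 motif overlapped a match to another in these regions. A match describes the letters and is not evidence of binding. The 8 start regions were low in CpG dinucleotides, with counts from 0 at Hbb-bt to 7 at Gp1bb. The median was 10 over all start regions, 16 over those of genes with a peak at a listed start and 5 over those without. Epor, with 6, and Gp1bb lay above the last of these.

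The globin genes encode the protein chains of haemoglobin. Hbb-bt (chr7:103812524-103813923) lay under a pair of peaks, 1 over each end. The peak at its start, chr7:103813683-103814132, had its summit 26 bp inside the annotated start, a signal value of 3.09 at −log10 q 2.68, where q is the authors' adjusted p-value. It covered 209 of the 250 bases printed above. The peak at the far end of the gene, chr7:103812108-103812822, was the stronger of the pair, with 3.92 at −log10 q 4.98. A stretch of 860 bases inside the gene separated them. Both were below the median of 4.25 over all peaks near gene ends, at the 21.0th and 42.3rd percentile of that class. Neither reached −log10 q of 5 or a signal value of 4. With either limit, none of the 9 genes had a peak at an end. These limits left 8291 and 7787 of the 22948 peaks. The share over all protein-coding genes at them is not given, so this count has no background beside it. In a mixture of cells, a weak peak cannot tell a mark on few cells from a low level on many.

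The other adult beta-globin gene, Hbb-bs, had no peak at an end, nor had the embryonic genes Hbb-bh1, Hbb-bh2 and Hbb-y. Hbb-bt and Hbb-bs are near copies, and reads from shared stretches may have been placed at either or dropped by the authors' alignment, whose settings are not given in the sources used here. Their 250 bases before the start were 73.3% identical over 243 aligned bases. No summit lay between Hbb-bt and a point 356 kb beyond its high end, so no peak was called between Hbb-bt and Hbb-y or for some distance beyond Hbb-y, on the side of the locus control region. On the low side, the next summit was 50.4 kb away, just outside the 50 kb limit. That peak, chr7:103761911-103762202, was weak, with a signal value of 2.20 at −log10 q 0.403. None of the 7 protein-coding neighbours within 50 kb had a peak at an end.

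Hba-a1 (chr11:32283672-32284486), an adult alpha-globin gene, had no peak of its own. A single summit lay within 50 kb, 16.4 kb below the gene, in the peak chr11:32267148-32267461 with a signal value of 3.95 at −log10 q 5.62. This summit was 385 bp inside Nprl3, measured from the annotated start of that gene. Nprl3 is a regulator of amino acid sensing, and its start was marked. No other peak was called in Nprl3, the gene whose introns hold alpha-globin enhancers. Hba-a2, Hba-x, Hbq1a and Hbq1b had no peak at an end either. The 250 bases before the starts of Hba-a1 and Hba-a2 were 100% identical over 247 aligned bases, so reads from this stretch cannot be assigned to 1 of the copies. The next summit on the high side was 79.9 kb away. Over all 10 globin genes of both clusters, 1 had a peak at an end and 0 had a distal peak within 50 kb, against 36.2% and 43.8% of all protein-coding genes. Genes of the same cluster lie close together and share the same nearby peaks, so these are not 10 separate observations. The 0 rested on the windows: it became 4 with distal defined by listed starts, 5 with 250 bp in place of 1 kb at gene ends and 10 within 100 kb. With listed starts, the 4 counted the far-end peak of Hbb-bt, whose summit was 1.29 kb from a start. With 250 bp, the 5 counted the peak at the start of Nprl3. Within 100 kb, Hba-a1 and Hbb-bt each counted 1 weak peak, at −log10 q 0.779 and 0.403. The shares over all protein-coding genes with these windows are not given.

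Klf1 (chr8:84901982-84905291) encodes the transcription factor that activates the adult beta-globin gene and many other red cell genes. It had no peak at an end or in its body. The nearest summit, 44.4 kb below the gene, was at Farsa, which encodes a subunit of a transfer RNA synthetase. That peak, chr8:84856987-84857688, had a signal value of 2.94 at −log10 q 2.16. On the other side, the first summit was 64.6 kb away, at Prdx2. Of 6 protein-coding neighbours within 50 kb, Farsa was the 1 with a peak at an end. The span free of summits around Klf1 was 112 kb long. Just outside the 50 kb limit, at 54.5 and 55.7 kb on the low side, a pair of peaks at Calr had signal values of 2.90 and 5.63, of which the second was stronger than the peak at Farsa.

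Epor (chr9:21958897-21963576) encodes the erythropoietin receptor, on which red cell precursors depend. It too had no peak at an end, in the body or distal within 50 kb. It nevertheless had 3 peaks within 50 kb, all near ends of other protein-coding genes. At Swsap1, a DNA repair gene 3.00 kb below Epor by its summit, the peak chr9:21955727-21956039 had a signal value of 3.49. At Rab3d it was 3.91, with the summit 41.1 kb below Epor. At Prkcsh it was 6.33, with the summit 39.6 kb above Epor. The last peak also reached an end of Ccdc151, so 4 of 8 neighbours had a peak at an end. The share over all protein-coding genes was 36.2%. Epor thus had some neighbours with marked ends and no peak at its own ends.

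Itga2b (chr11:102453297-102469883) encodes CD41, the alpha chain of the platelet fibrinogen receptor, which is also used to follow early haematopoietic cells. It had no peak at an end or in its body. Within 50 kb there were 2 peaks, both over Slc25a39, a mitochondrial carrier gene 45.2 kb away by its nearer summit. The stronger, chr11:102407704-102408503, was at an end of Slc25a39 and had a signal value of 6.27 at −log10 q 15.4. The other, chr11:102406936-102407296, had 2.69 and −log10 q of 1.67. It counted as distal because its summit was 1.49 kb from the gene end, but it was 328 bp from a listed start of Slc25a39. When distal was defined by listed starts in place of gene ends, a setting added after the data were seen, Itga2b had 0 distal peaks.

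Gp1bb and Gp9 encode subunits of the platelet receptor for von Willebrand factor. Gp1bb (chr16:18620319-18622403), which overlaps Septin5 in the gene table, had no peak within 50 kb. The nearest summit was 89.8 kb above it, in a weak peak with a signal value of 2.32 at −log10 q 1.06. On the other side the nearest was 122 kb away. Neither of its 2 protein-coding neighbours, Tbx1 and Septin5, had a peak at an end.

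Gp9 (chr6:87776131-87779786) had 3 peaks within 50 kb, all on its high side and all over Rab43, a gene of vesicle transport. The strongest, chr6:87806475-87811729, lay at the start side of Rab43, 31.5 kb from Gp9, with a signal value of 8.63 at −log10 q 27.3. Its summit was 475 bp from a listed start. The nearest, chr6:87787785-87791678, had its summit 8.90 kb from Gp9, a width of 3894 bp, a signal value of 4.83 at −log10 q 9.06. It lay over the low end of Rab43, which is read on the minus strand, so this is the end opposite its starts. The nearest listed start of any gene was 10.6 kb from that summit. Between these peaks, chr6:87797050-87798479 was the 1 that counted as distal, with a signal value of 2.62 at −log10 q 1.35. Defined by listed starts, Gp9 had 2 distal peaks in place of 1. On the low side of Gp9 no summit was found for 103 kb.

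Pf4 (chr5:90772435-90773383) encodes platelet factor 4, a chemokine stored in platelet granules. It was the farthest of the 9 genes from any summit. The nearest summit was 158 kb away on the high side and 405 kb away on the low side, so the span free of summits was 565 kb long. Its 4 neighbours within 50 kb, the chemokine genes Ppbp, Cxcl5, Cxcl3 and Cxcl15, had no peak at an end. With Gp1bb, Pf4 was 1 of the 2 genes without any peak within 50 kb. The other 7 of 9 had at least 1, against 68.6% of all protein-coding genes.

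Vwf (chr6:125552948-125686679) encodes von Willebrand factor, the adhesive protein made by megakaryocytes and endothelial cells. It had no peak at either end and was the 1 of the 9 genes with a peak in its body, a state found in 16.6% of all protein-coding genes. The 3 genes shorter than 2 kb, Hba-a1, Hbb-bt and Pf4, could not have one. Any summit inside them counts as at an end. Vwf is 133732 bp long, and among the 2429 protein-coding genes of at least 100 kb, 50.1% had a peak in the body, so a body peak in a gene of this length lay at the background. The peak, chr6:125572339-125573934, was 1596 bp wide, with a signal value of 7.65 at −log10 q 21.6. It was at the 96.1st percentile of distal peaks and the 93.3rd of all peaks. Its summit was 20.2 kb from the low end of Vwf, 114 kb from the high end and 78.4 kb from the nearest listed start of any gene. This was the 1 distal peak around the 9 genes that passed −log10 q of at least 5. It was isolated: the next summits were 71.3 kb below the gene, in Cd9, and 1162 kb above it. The reference table lists no strand for Vwf, so the peak is placed only by distance from the ends, and whether it lies in an intron was not examined.

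**Figure D2:**
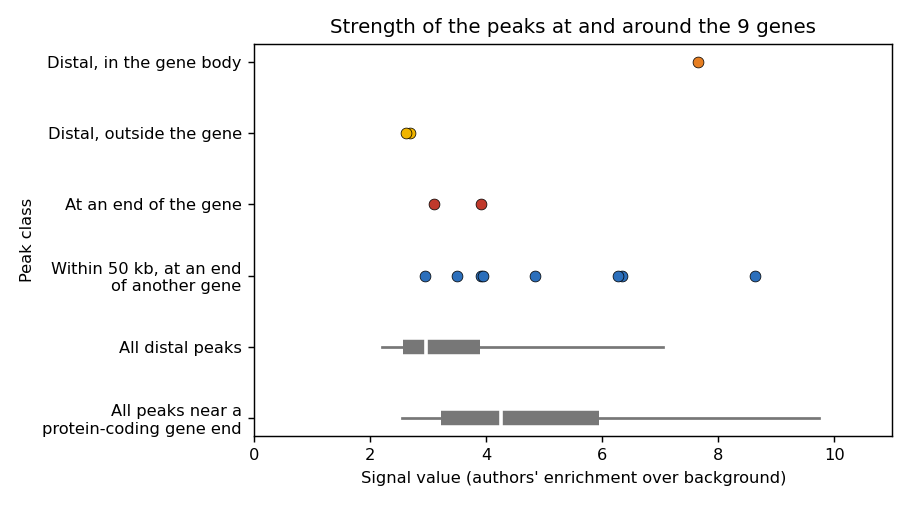
Signal value (authors' enrichment over background) of each peak within 50 kb of the 9 genes, by class, with 1 point per peak. The grey bars give the interquartile range, the lines the 5th to 95th percentile and the white ticks the median of all 7468 peaks near gene ends and all 15480 distal peaks; the Vwf peak at 7.65 lies beyond the 95th percentile of distal peaks, and the other distal peaks lie below the distal median of 2.97.

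The 13 peaks within 50 kb were thus mostly those of other genes. Of these, 8 were at ends of other protein-coding genes, with signal values from 2.94 to 8.63 and a median of 4.39. The pair at Hbb-bt and 3 distal peaks made up the rest. The 9 genes had 40 protein-coding neighbours within 50 kb, of which 10 (25%) had a peak at an end, against the background of 36.2%. The distance from the gene to the nearest summit had a median of 16.4 kb over the 9 genes, 8.48 kb over all protein-coding genes and 48.3 kb over genes whose ends carried no peak. In order, the distances were 0 kb for Hbb-bt and Vwf, 3.00 kb for Epor, 8.90 kb for Gp9, 16.4 kb for Hba-a1, 44.4 kb for Klf1, 45.2 kb for Itga2b, 89.8 kb for Gp1bb and 158 kb for Pf4. Only Pf4 and Gp1bb were farther from a summit than the median gene without a peak at an end. The median number of distal peaks within 50 kb was 0 for the 9 genes and 0 for all protein-coding genes, where 43.8% had at least 1, against 3 of 9 here.

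**Figure D3:**
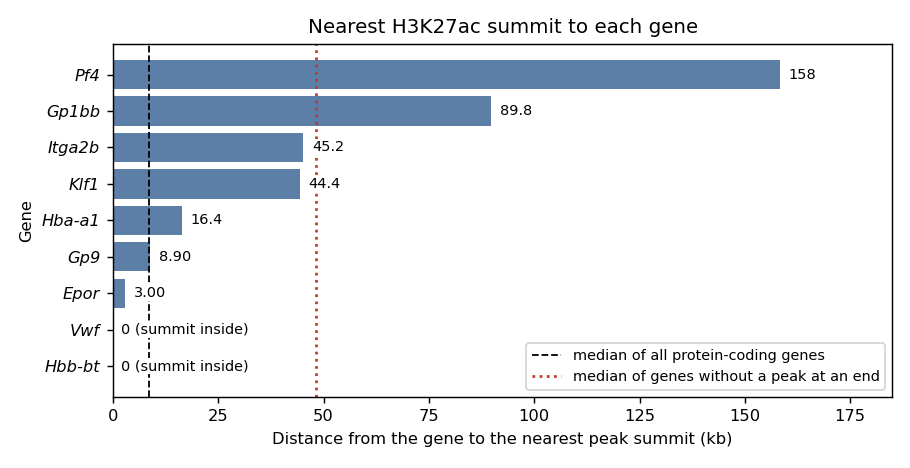
Distance in kb from each of the 9 genes to the nearest peak summit, 0 where a summit lies inside the gene. The lines mark the median of all protein-coding genes, 8.48 kb, and of genes whose ends carry no peak, 48.3 kb; Pf4 and Gp1bb lie beyond both.

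Larger lists place the 9 genes in their pathways. Of 89 genes on the 6 erythroid and megakaryocyte lists pooled, the 9 included, 20 (22.5%) had a peak at an end and 38 (42.7%) had a distal peak within 50 kb, against 36.2% and 43.8% of all protein-coding genes. Without the 9 genes the counts were 19 (23.8%) and 35 (43.8%) of 80. Of the 69 listed genes without a peak at an end, 25 had a distal peak, near the 34.1% over all protein-coding genes in this state, the background for the same count in each list below. Of all deposited peaks, 21.2% had a q-value above 0.05, and 4 of the genes named below (Alad, Aqp1, Stat5a and P2ry1) had only such a peak at an end. The lists differed in these counts, which were not tested.

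Genes of haem synthesis and iron uptake, many of which all cells use, had peaks at ends in 6 of 12 cases. Uros, Ppox and Alad, enzymes of haem synthesis, had signal values of 6.06, 4.68 and 2.23, the last at −log10 q 0.403. Tfrc, the transferrin receptor, had 5.84, and Slc25a38, a mitochondrial glycine carrier, had 4.59. Without a peak at an end, Cpox had 2 distal peaks. Alas2, the erythroid form of the first enzyme of the pathway, had no peak at an end and no distal peak.

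Genes of the red cell membrane and surface had a peak at an end in 2 of 18 cases: Car2, a carbonic anhydrase, with 3.64, and Aqp1, a water channel, with 2.22 at −log10 q 0.690. Car2 also had 6 distal peaks, the strongest at 7.35. Of the 16 genes without a peak at an end, 6 had a distal peak. Slc4a1, the anion exchanger band 3, had 4, and Rhag, Rhd, Ank1, Epb42 and Icam4 had 1 each. Among the 4 at Slc4a1 was the weak peak also counted for Itga2b, 328 bp from a listed start of Slc25a39.

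Among 20 regulators of these lineages, 7 had a peak at an end and 14 had a distal peak within 50 kb, with a median of 2.5 distal peaks per gene. The signal values at ends were 10.1 for Runx1, 5.39 for Myb, 5.32 for Jak2, 4.71 for Bcl11a, 4.19 for Cbfa2t3, 2.72 for Lyl1 and 2.45 for Stat5a, the last at −log10 q 0.799. At listed starts, Bcl11a and Stat5a had stronger peaks, with 6.37 and 4.37. Most of these act in several blood lineages. Of the 13 without a peak at an end, 7 had a distal peak. Fli1, an ETS factor of megakaryocytes and other blood cells, had 18 and Mef2c had 7. Mef2c, Ldb1 and Zbtb7a, named after their values were seen, had a peak at a listed start that was not an end of the gene, with signal values of 5.02, 4.53 and 4.37. At Mef2c and Ldb1 this peak was also the strongest of those counted as distal. Defined by listed starts, 12 regulators had a distal peak in place of 14. Gata1, Gata2 and Tal1, also named after their values were seen, had no peak within 50 kb.

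Among platelet surface receptors, 2 of 16 had a peak at an end, the ADP receptor genes P2ry12 with 4.01 and P2ry1 with 2.29 at −log10 q 0.403. Of the 14 others, 6 had a distal peak. Cd9 had 2, while Itga2b, Gp1ba, Gp9, Selp and Itga2 had 1 each. The Cd9 summits were 501 and 398 bp from the nearest listed start of any gene, so they were distal by gene ends only. Their signal values were 2.60 and 2.75, at −log10 q 1.22 and 1.67. Among genes of platelet granules and proplatelets, 2 of 14 had a peak at an end, Mmrn1, a platelet granule protein, with 5.45 and Myh9, the heavy chain of non-muscle myosin, with 5.32. Of the 12 others, 5 had a distal peak, with 2 each at Tubb1 and F5. The distal peak in Vwf was the strongest of these 5 genes, whose other best values ran from 2.78 to 4.41.

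**Figure D4:**
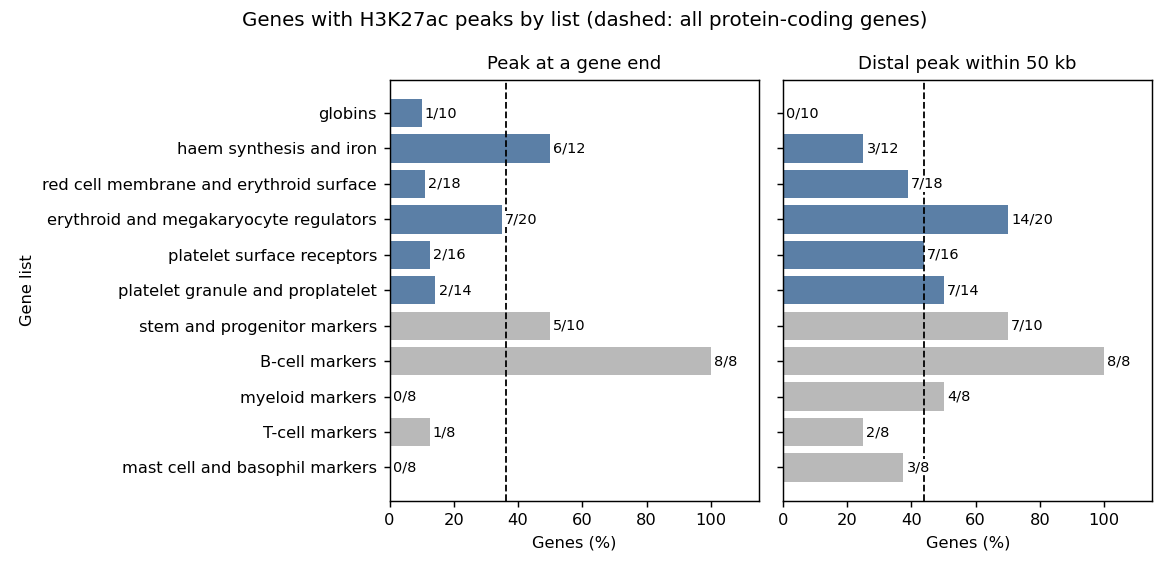
Percentage of genes in each list with a peak at an end (left) and with a distal peak within 50 kb (right), with the counts beside the bars. Blue bars are the 6 erythroid and megakaryocyte lists, grey bars the marker lists, and the dashed lines all protein-coding genes (36.2% and 43.8%); 5 of the 6 blue bars on the left lie below the line.

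The labelled cell type was set against marker lists. Of 10 stem and progenitor markers, 5 had a peak at an end: Ptprc, Kit and Flt3, with Slamf1 and Meis1. Ly6a, which encodes Sca1, had none at an end and 3 distal peaks, and Cd34, Procr and Hlf had none at an end. Procr and Hlf had no peak within 50 kb. All 8 B-cell markers had a peak at an end, with a median signal value of 7.26, and all 8 had a distal peak within 50 kb, with a median of 4.5. The stem and progenitor list had a distal peak at 7 of 10 genes, with a median of 1.5. The share over all protein-coding genes was 43.8%. The counts at ends were 0 of 8 for myeloid, 1 of 8 for T-cell and 0 of 8 for mast cell and basophil markers, and the counts with a distal peak were 4, 2 and 3 of 8. The T-cell gene was Cd3d, whose peak did not reach a listed start. The part that other cell types play in the values of the 9 genes was not tested.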

How the data were processed

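Per the submitters' processing notes, BWA and MACS2 were among the tools and the build was mm10; their roles and settings are not given in the sources used here. The authors deposited 1 headerless peak list for the 4 H3K27ac libraries over input. Its columns hold the authors' signal value, read as an enrichment ratio over background, −log10 p and −log10 q, a score of 10 times −log10 p (not used here) and other values (the summit offset). Read depth is unknown, so no interval is given. Peaks were counted against RefSeq genes of GRCm38.p6, with coordinates 1-based; all 9 genes matched by symbol, and 1 gene of the lists (Ahsp) did not. A peak was at an end by any overlap with 1 kb on either side, in the body by its summit, and distal when its summit was over 1 kb from all protein-coding gene ends. The 50 kb were counted from the gene's span by the summit, gene body included. Copies were aligned globally with Biopython 1.88. Counting was tested on simulated data. Python 3.11.15, numpy 2.4.6 and pandas 2.3.3 were used.

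The 9 genes and all lists were chosen with earlier results of these data known. The text names all 9 genes, listed genes with a peak at an end, and the 2 genes per list with most distal peaks among the others, ties included. Single values of 2 listed genes are not reported here. Alternatives were the window at ends (250 bp, 2.5 kb), the distance (25 kb, 100 kb), stricter peak lists, summits in place of overlap, all annotated genes, and merged peaks.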

Additional observations from a re-analysis of the deposited data

How the results depend on the processing

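Of 147 recomputed counts, 102 stayed within 1.5 times the value given, 29 fell further and 16 rose further. With −log10 q of at least 5 (8291 peaks) or, with the same counts, a signal value of at least 4 (7787 peaks), peaks at ends were left at 0 of the 9 genes, 0 globin genes, 0 red cell membrane genes and 1 platelet receptor gene. Distal peaks were left at 1 of the 9 genes (also 1 of those without a peak at an end, with 1 peak), 4 red cell membrane, 1 platelet receptor and 3 platelet granule genes. With a q-value of at most 0.05, 1 red cell membrane and 1 platelet receptor gene kept a peak at an end. With 2.5 kb, red cell membrane genes had 4 with a peak at an end and 4 with a distal peak, and 4 platelet granule genes had a peak at an end. With 250 bp, which also counts summits beyond 250 bp from an end as distal, 6 of the 9 genes had a distal peak (6 without a peak at an end, with 8 peaks), as did 5 globin, 8 haem and 12 red cell membrane genes, while 1 red cell membrane gene and 4 regulators had a peak at an end. By summit, 0 red cell membrane and 1 platelet granule gene had one. Within 25 kb, distal peaks were found for 1 haem and 1 red cell membrane gene. Within 100 kb, they were found for 6 of the 9 genes (5 without a peak at an end, with 8 peaks), 10 globin, 7 haem and 12 platelet receptor genes. Defined by listed starts, a setting added after the data were seen, 4 globin and 5 haem genes had distal peaks. The moves follow from fewer peaks or other windows. The shares over all protein-coding genes are not given under these settings, so the counts in this paragraph have no background to be read against. Leaving out single libraries was impossible with a pooled list. No paired analysis was possible because replicates were pooled before deposit. Depth is unknown, so a gene without a peak is one without a called peak, and absence of the mark was not measured.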

Other observations

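The 8 genes of mast cells and basophils, which share early progenitors with the erythroid and megakaryocyte lineages, had no peak at an end. The share over all protein-coding genes was 36.2%. Of 8 such genes, 3 had a distal peak within 50 kb, near the background of 34.1% over all protein-coding genes without a peak at an end. Hdc, the histidine decarboxylase of mast cells and basophils, had 3, the strongest with a signal value of 9.70. Prss34, a basophil protease gene, had 1 with a signal value of 11.1, its nearest summit being 24.5 kb away. Cpa3, a mast cell protease gene, had 1 with a signal value of 3.55. The strongest peak near Hdc and the peak near Prss34 had higher signal values than the peak in Vwf, at 7.65. These genes were named after their values were seen, and which gene a distal peak acts on was not measured.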
